A study of Mus musculus with 6 samples.

Results

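Erythroid genes were followed in RNA of CD43-depleted splenic B-cells. They are the adult globin genes Hba-a1, Hba-a2, Hbb-bs and Hbb-bt, the haem enzyme gene Alas2, the red cell membrane genes Slc4a1 and Epb42, and the transcription factor genes Klf1 and Gata1. They were chosen by the globin values, which were higher in the Eμ-deficient libraries than in the wt libraries, and all 9 named genes were present among the 46963 genes counted. Every difference between Eμ-deficient and wt libraries is therefore given as a description, with no test. The study compared wt mice, mice lacking the Eμ enhancer of the IgH locus together with its flanking matrix attachment regions (EμMAR-deficient, here Eμ-deficient) and mice lacking the 3′ regulatory region (3′RR-deficient). All mice were on a 129 background, 8 to 12 weeks old, male and female. B-cells were analysed resting or after 2 days with 5 μg per ml of lipopolysaccharide (LPS), a bacterial membrane component that activates B-cells, with 1 library per genotype and state, each from a pool of 2 mice according to the labels, while the study's methods describe more than 1 such pool for each genotype. By the labels the resting cells spent 2 days in medium without LPS, whereas by the study's methods they were taken before stimulation, and the LPS dose has another unit (mg) in the protocol text of the labels.

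Red blood cells arise from erythroblasts, nucleated precursors that divide and mature in the bone marrow and, in mice, also in the red pulp of the spleen. The factors GATA1 and KLF1 switch on the genes of globin, haem synthesis and the red cell membrane, and the nucleus is lost at the last step. A reticulocyte, the young red cell, keeps mRNA that is mostly globin and loses it while it matures. Between erythroblasts and reticulocytes, mRNA of nuclear factors therefore marks the former, whereas globin mRNA occurs in both. Other blood cells can also hold mRNA of such factors, and their part was not tested. Depletion with an antibody against CD43 removes T-cells, myeloid cells and activated B-cells. Whether red cells were lysed is not given in the sources used here.

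The promoters of the members are shown first, since these genes are targets of the factors among them. RefSeq promoter sequences (GRCm38.p6, from 250 bases before to 50 bases after the start of transcription) were found for 8 of the 9 members, all but Slc4a1. Capitals mark matches to AGATAA, a form of the GATA site, and to CCNCNCCC, a KLF1 motif, on either strand. The KLF1 motif takes in CACCC boxes but is wider, and not every match holds the letters CACCC, for example CCCCTCCC in Gata1. Other forms of the GATA site, such as TGATAA, were not marked or counted. The first sequence stands for both α-globin genes, whose windows share a run of 297 bases. The others are those of the β-globin genes, Alas2, Gata1 and Epb42, in which matches were found. They lie at chr11:32283422-32283721 (Hba-a1, plus strand), chr7:103827879-103828178 (Hbb-bs, minus strand), chr7:103813874-103814173 (Hbb-bt, minus strand), chrX:150547167-150547466 (Alas2, plus strand), chrX:7967861-7968160 (Gata1, minus strand) and chr2:121036828-121037127 (Epb42, minus strand).
Hba-a1: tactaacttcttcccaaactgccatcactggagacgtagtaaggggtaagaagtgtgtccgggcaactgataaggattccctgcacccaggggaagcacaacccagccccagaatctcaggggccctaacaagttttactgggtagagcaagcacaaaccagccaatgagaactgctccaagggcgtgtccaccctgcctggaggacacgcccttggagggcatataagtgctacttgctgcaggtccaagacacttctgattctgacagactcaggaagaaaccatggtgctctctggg
Hbb-bs: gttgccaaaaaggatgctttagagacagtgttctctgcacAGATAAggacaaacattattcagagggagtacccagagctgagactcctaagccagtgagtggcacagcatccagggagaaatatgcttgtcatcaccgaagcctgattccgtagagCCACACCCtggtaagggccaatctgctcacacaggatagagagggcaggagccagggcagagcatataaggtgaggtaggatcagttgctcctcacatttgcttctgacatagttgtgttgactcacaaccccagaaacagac
Hbb-bt: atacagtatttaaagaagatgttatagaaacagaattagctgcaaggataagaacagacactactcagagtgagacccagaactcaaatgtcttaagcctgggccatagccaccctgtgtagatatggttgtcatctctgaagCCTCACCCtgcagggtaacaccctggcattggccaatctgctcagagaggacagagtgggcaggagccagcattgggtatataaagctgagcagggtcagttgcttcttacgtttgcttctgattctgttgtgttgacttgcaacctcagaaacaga
Alas2: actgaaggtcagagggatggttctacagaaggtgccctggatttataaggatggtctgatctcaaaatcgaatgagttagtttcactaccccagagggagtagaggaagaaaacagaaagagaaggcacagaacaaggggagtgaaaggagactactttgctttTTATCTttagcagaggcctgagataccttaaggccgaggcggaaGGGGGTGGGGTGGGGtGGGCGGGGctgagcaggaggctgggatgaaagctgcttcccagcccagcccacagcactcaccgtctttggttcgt
Gata1: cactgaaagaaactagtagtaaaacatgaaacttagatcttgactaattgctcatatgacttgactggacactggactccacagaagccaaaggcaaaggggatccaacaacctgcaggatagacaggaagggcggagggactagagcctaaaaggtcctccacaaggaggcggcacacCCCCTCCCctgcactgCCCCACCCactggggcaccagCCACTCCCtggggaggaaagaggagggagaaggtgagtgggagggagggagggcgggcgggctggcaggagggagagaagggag
Epb42: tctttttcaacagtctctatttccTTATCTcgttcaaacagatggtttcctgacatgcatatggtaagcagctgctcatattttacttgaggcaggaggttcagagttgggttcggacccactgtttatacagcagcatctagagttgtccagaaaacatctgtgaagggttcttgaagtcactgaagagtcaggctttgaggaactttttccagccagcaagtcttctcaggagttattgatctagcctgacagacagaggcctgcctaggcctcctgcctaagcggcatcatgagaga
A GATA match was found in 3 of the 8 promoters (Hbb-bs, Alas2 and Epb42) and in 11.2% of the 32851 promoters of that table. A match to the KLF1 motif was found in 4 of the 8 (Hbb-bs, Hbb-bt, Alas2 and Gata1) and in 49.5% of all promoters. Both occurred in 2 of the 8 (Hbb-bs and Alas2) and in 3.45% of all promoters. In Alas2, 4 matches to the KLF1 motif, some of them overlapping, lay close together before the start of transcription. A match is a description of these letters and no binding was measured.

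The genes received 16094475 counts in the wt, 13406257 in the Eμ-deficient and 20780706 in the 3′RR-deficient library of resting B-cells. After LPS stimulation they received 21998587, 10936243 and 9111974 counts, respectively. Levels are given as CPM, counts relative to library sizes that the TMM method of edgeR adjusted. Differences are log2 ratios of CPM with the exact 95% interval of the ratio of the counts, which covers counting error only. Within a state no difference between genotypes has a replicate check. The 10 B-cell markers summed here, such as Cd79a, Ms4a1 and Cd74, were above 3 counts in every library. They summed to 6244, 5286 and 6096 CPM in the resting wt, Eμ-deficient and 3′RR-deficient libraries and to 2895, 2568 and 3062 CPM after LPS stimulation. Single markers moved both ways. In the resting Eμ-deficient library 3 of the 10 were higher than in wt, and the median log2 ratio was -0.40. Cd79a had 570 CPM in the resting wt and 271 CPM in the resting Eμ-deficient library, and Cr2 had 394 and 731 CPM.

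The spike-in RNAs, which were added in fixed proportions, did not keep them between all libraries. Among the 35 that received 100 counts or more throughout, log2 ratios to the wt library of the same state had an SD of 1.27 (3′RR-deficient) and 0.44 (Eμ-deficient) after LPS stimulation and of 0.16 and 0.48 in resting B-cells. Between the LPS-stimulated and resting libraries of a genotype the SD was 0.78 (wt), 0.13 (Eμ-deficient) and 0.63 (3′RR-deficient). Which library departs cannot be told apart from such ratios. Mitochondrial genes took 7.53%, 14.1% and 8.87% of the gene counts in the resting wt, Eμ-deficient and 3′RR-deficient libraries and 13.9%, 9.35% and 3.21% after LPS stimulation. The part of these differences in the ratios below was not tested.

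The globin genes encode the chains of haemoglobin, 2 copies of α (Hba-a1 and Hba-a2) and 2 of β (Hbb-bs and Hbb-bt). Hba-a1 had 1460.4, 6963 and 1544 CPM in the resting wt, Eμ-deficient and 3′RR-deficient libraries, and 19.3, 254 and 68.1 CPM after LPS stimulation. Hba-a2 had 451, 3089 and 609 CPM in resting B-cells and 9.90, 97.9 and 18.2 CPM after LPS stimulation. The resting Eμ-deficient library was the highest for both α genes, and each resting library lay above all LPS libraries. Hbb-bs had 1045, 7236 and 1232 CPM in resting wt, Eμ-deficient and 3′RR-deficient B-cells and 20.6, 282 and 38.6 CPM after LPS stimulation. Hbb-bt had 327, 2515 and 411 CPM in resting B-cells and 2.68, 27.5 and 6.74 CPM after LPS stimulation. The order of the libraries was that of the α genes. Together the globins took 0.371%, 1.95% and 0.376% of the gene counts in resting wt, Eμ-deficient and 3′RR-deficient B-cells and 0.00499%, 0.0646% and 0.0129% after LPS stimulation.

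**Figure D1:**
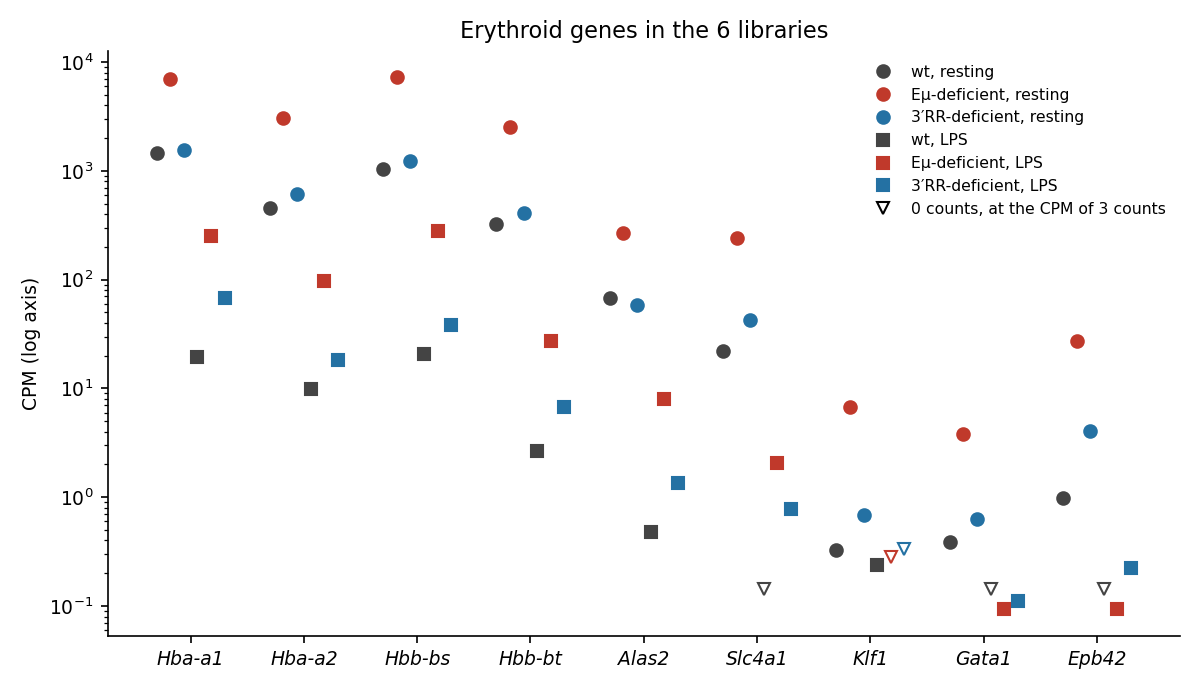
CPM of the 9 erythroid genes (log axis) in the resting (circles) and LPS-stimulated (squares) libraries of each genotype, with a library at 0 counts drawn as an open triangle at the CPM of 3 counts. Each point is 1 library, and for every gene the resting Eμ-deficient library is the highest, from 3.78 CPM for Gata1 to 7236 CPM for Hbb-bs.

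The summed globin count was 6.03-fold higher in the resting Eμ-deficient than in the resting wt library, a log2 ratio of 2.59 (95% interval 2.58 to 2.61). With the spike-in total as the library size, which moved the median of all genes by -0.80, that ratio was 1.78. After LPS stimulation it was 12.6-fold higher, a log2 ratio of 3.66 (95% interval 3.57 to 3.75). Between the 3′RR-deficient and wt libraries the log2 ratio was 0.21 (95% interval 0.19 to 0.22) in resting B-cells, and it was -0.04 with the spike-in total as the library size. In LPS-stimulated B-cells that ratio was 1.33 (95% interval 1.21 to 1.45), and it was 0.90 after correction for a GC trend. The libraries are bulk samples, in which fewer cells of a type and less RNA per cell cannot be told apart.

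Single globin genes did not move by the same factor. Between resting Eμ-deficient and wt libraries the log2 ratio was 2.25 for Hba-a1 (95% interval 2.23 to 2.27) and 2.94 for Hbb-bt (95% interval 2.90 to 2.98), with 2.78 for Hba-a2 and 2.79 for Hbb-bs in between. The order depends on GC content, since with the GC trend removed the ratios were 2.63 (Hba-a1), 2.91 (Hbb-bs), 3.03 (Hbb-bt) and 3.14 (Hba-a2). The α genes held 58.2% of the globin counts in the resting wt library (exact 95% interval 57.8% to 58.6%), 50.8% in the Eμ-deficient library (50.6% to 51.0%) and 56.7% in the 3′RR-deficient library (56.4% to 57.1%). The α share was thus lowest in the Eμ-deficient library. The α genes have 57.2% and 56.9% GC and the β genes 51.3% and 50.8%, these shares are not corrected for GC, and the part of GC in them was not tested. After LPS stimulation it was 55.7% (52.7% to 58.7%), 53.2% (52.0% to 54.3%) and 65.6% (62.8% to 68.3%). Among the β counts, Hbb-bs held 76.2%, 74.2% and 75.0% in resting wt, Eμ-deficient and 3′RR-deficient B-cells and 88.5%, 91.1% and 85.1% after LPS stimulation, so that each LPS library lay above each resting library. These shares are uncertain, since reads that map to several places were counted and the copies are alike. Of the stretches of 150 bases in the longest Hba-a1 transcript, 48.4% also occur in Hba-a2, and of those in Hbb-bs, 58.7% occur in Hbb-bt. The reference β genes are also not those of every mouse strain, and the strain's own sequence was not used here.

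Alas2 encodes the erythroid form of the enzyme that opens haem synthesis. It had 68.1, 270.2 and 58.5 CPM in resting wt, Eμ-deficient and 3′RR-deficient B-cells and 0.478, 7.96 and 1.35 CPM after LPS stimulation. The log2 ratio of the Eμ-deficient to the wt library was 1.99 in resting B-cells (95% interval 1.89 to 2.08), smaller than for any globin gene. For the resting 3′RR-deficient library it was -0.22 (95% interval -0.33 to -0.10). Alas2 was thus lower than in wt on this scale, where the other members were higher. Hba-a1, however, had a ratio of -0.11 by total count and of -0.16 by spike-in total, and Hbb-bs of -0.00742 by spike-in total. Of 15 other genes of haem synthesis and iron tested, 9 were at least 2-fold higher in the resting Eμ-deficient than in the wt library and 0 in the resting 3′RR-deficient library, beside 12.5% and 5.38% of all 14600 genes tested. The median log2 ratios were 1.13 and 0.24, beside 0.02 and 0.01 over all genes. Many of these genes are used by all cells. Tfrc, the transferrin receptor gene of dividing cells and erythroblasts, had 51.6, 112.5 and 70.5 CPM in resting B-cells, and 285, 172 and 174 CPM after LPS stimulation.

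Slc4a1 encodes band 3, the anion exchanger of the red cell membrane, and Epb42 protein 4.2, which binds to it. Slc4a1 had 22.0, 243 and 42.8 CPM in resting wt, Eμ-deficient and 3′RR-deficient B-cells. After LPS stimulation it had 0 counts in the wt library, which allows up to 0.143 CPM, and 2.06 and 0.786 CPM in the Eμ-deficient and 3′RR-deficient libraries. Epb42 had 0.990 CPM (18 counts), 27.5 CPM (363 counts) and 4.03 CPM (83 counts) in resting B-cells, and 0, 1 and 2 counts after LPS stimulation. In resting B-cells both genes were highest in the Eμ-deficient and lowest in the wt library. The log2 ratio of the resting Eμ-deficient to the wt library was 3.47 for Slc4a1 (95% interval 3.32 to 3.62) and 4.79 for Epb42 (95% interval 4.11 to 5.56), both above the highest ratio of a globin gene. For the resting 3′RR-deficient library the ratio to wt was 0.96 for Slc4a1 (95% interval 0.79 to 1.14) and 2.03 for Epb42 (95% interval 1.28 to 2.85). In LPS-stimulated B-cells Slc4a1 was at least 7.33-fold higher in the Eμ-deficient and at least 2.33-fold higher in the 3′RR-deficient than in the wt library, with a floor of 3 counts of the shallower library.

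Other membrane genes were described with them. Rhag, of the Rhesus complex, had 0.330, 8.32 and 1.07 CPM in the resting wt, Eμ-deficient and 3′RR-deficient libraries, and Cldn13, a claudin gene of mouse erythroblasts, had 0.605, 15.8 and 1.75 CPM. Ermap, an erythroid membrane gene, had 1.60, 25.4 and 3.99 CPM. These 3 genes were highest in the Eμ-deficient library and lowest in the wt library. Sptb, the β-spectrin gene, had a log2 ratio of 3.27 for the Eμ-deficient and of 0.72 for the 3′RR-deficient library, and the ankyrin gene Ank1 had 2.51 and 0.13. Of 15 membrane and skeleton genes tested other than the members, 12 were at least 2-fold higher in the resting Eμ-deficient and 8 in the resting 3′RR-deficient than in the wt library, beside 12.5% and 5.38% of all genes. Their median log2 ratios were 3.39 and 1.05, beside 0.02 and 0.01.

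Klf1 and Gata1, the genes of the factors that drive the erythroid programme, had low counts. Klf1 had 6, 89 and 14 counts in resting wt, Eμ-deficient and 3′RR-deficient B-cells (0.330, 6.73 and 0.680 CPM). After LPS stimulation it had 5 counts in the wt library (0.239 CPM) and 0 counts in the Eμ-deficient and 3′RR-deficient libraries, which allow up to 0.281 and 0.337 CPM. Only the resting Eμ-deficient library stood above 14 counts. Gata1 had 7, 50 and 13 counts in resting B-cells (0.385, 3.78 and 0.632 CPM) and 0, 1 and 1 counts after LPS stimulation. The log2 ratio of the resting Eμ-deficient to the wt library was 4.35 for Klf1 (95% interval 3.17 to 5.83) and 3.30 for Gata1 (95% interval 2.15 to 4.68). For the resting 3′RR-deficient library the ratios were 1.04 (95% interval -0.43 to 2.71) and 0.71 (95% interval -0.72 to 2.28), so that a difference was not detectable at this depth.

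Further factor and receptor genes were described with them. Tal1 and Nfe2 encode further factors of erythroid and other blood cells. The log2 ratio between resting Eμ-deficient and wt libraries was 3.26 for Tal1 (95% interval 2.64 to 3.94) and 3.09 for Nfe2 (95% interval 2.39 to 3.88). The erythropoietin receptor gene Epor had 0.440, 3.93 and 0.778 CPM in resting wt, Eμ-deficient and 3′RR-deficient B-cells. Kit, the stem cell factor receptor gene of early erythroblasts, mast cells and progenitors, had 201, 327 and 247 counts, with 11.1 CPM for wt and 24.7 CPM for Eμ-deficient B-cells. These 4 genes were highest in the resting Eμ-deficient library, whereas in the same lists Lmo2, Lyl1, Ldb1 and Trib2 were lower there than in wt, with log2 ratios of -0.58, -0.74, -0.66 and -1.87. Of 9 factor and cofactor genes tested other than the members, 4 were at least 2-fold higher in the resting Eμ-deficient and 1 in the resting 3′RR-deficient than in the wt library, beside 12.5% and 5.38% of all genes, with median log2 ratios of -0.05 and 0.19. Several of them, such as Lmo2, Ldb1 and Cbfa2t3, are also used by B-cells or other blood cells. Of 9 receptor and early genes 5 and 3 were, beside the same shares of all genes, with medians of 1.16 and 0.65.

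Genes of late maturation were described last. Of 15 such genes tested, 8 were at least 2-fold higher in the resting Eμ-deficient and 1 in the resting 3′RR-deficient than in the wt library, beside 12.5% and 5.38% of all genes, with median log2 ratios of 1.01 and -0.04. Bpgm, which makes the red cell's oxygen affinity regulator, had a log2 ratio of 1.90 (95% interval 1.74 to 2.06) for the Eμ-deficient library and of -0.17 (95% interval -0.36 to 0.02) for the 3′RR-deficient library. For Bnip3l, which helps clear mitochondria from reticulocytes and is used by many cells, the ratios were 0.95 and 0.22. The carbonic anhydrase gene Car2 had a ratio of 3.31 for the Eμ-deficient library and of 1.01 for the 3′RR-deficient library.

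**Figure D2:**
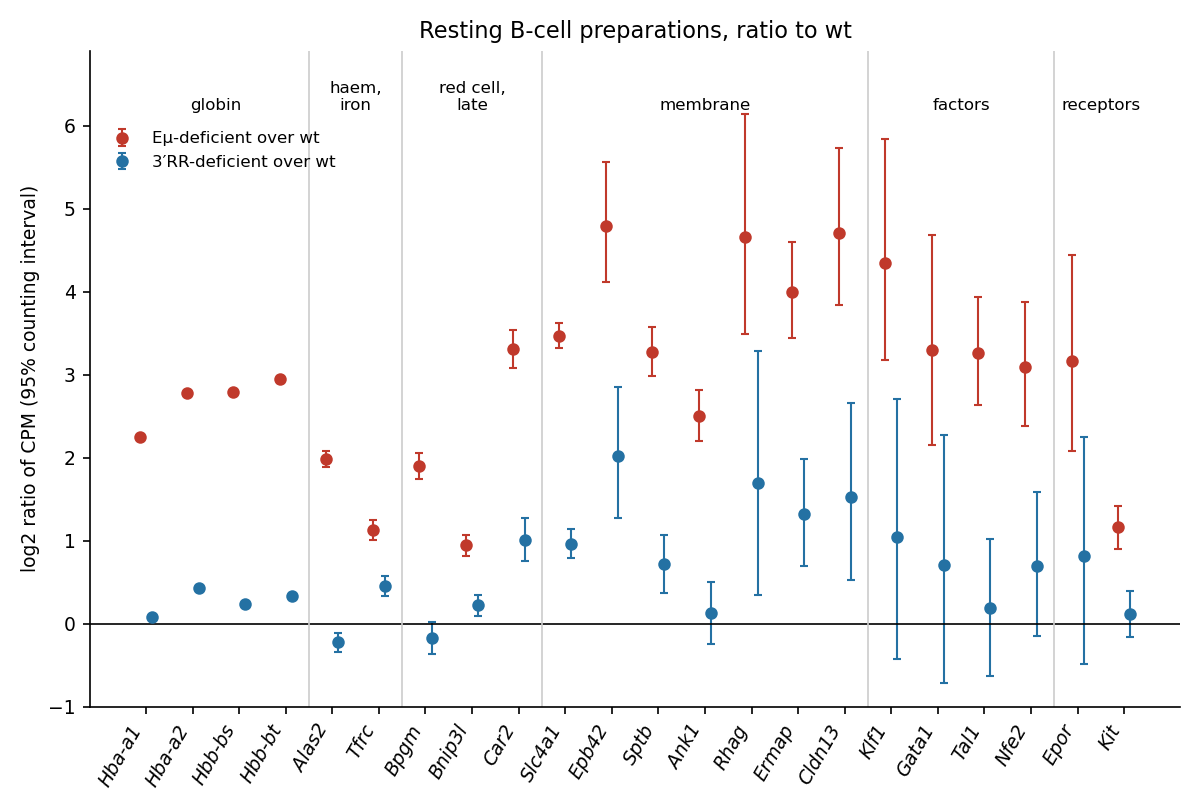
Log2 ratios of CPM to the resting wt library for the resting Eμ-deficient (red) and 3′RR-deficient (blue) libraries, with 95% counting intervals, for the 9 members and 13 other erythroid genes ordered by role. Eμ-deficient ratios run from 0.95 for Bnip3l to 4.79 for Epb42, and those of membrane genes other than Ank1 lie above those of the globin genes; both comparisons share the wt library.

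Of the 9 members, 9 were at least 2-fold higher in the resting Eμ-deficient than in the wt library, beside 12.5% of all genes tested, and 6 were after LPS stimulation, beside 8.43%. Nothing is read from these counts, since the members were chosen from that contrast. Nor is support drawn from the counts and medians of the other erythroid lists given above, which describe the same libraries. In the 3′RR-deficient library 2 members, Klf1 and Epb42, were at least 2-fold higher than in the wt library in resting B-cells, beside 5.38% of all genes. In LPS-stimulated B-cells 4 members were, Hba-a1, Hbb-bt, Alas2 and Slc4a1, beside 11.2%. Klf1 passed the count filter only through the resting Eμ-deficient and 3′RR-deficient libraries, with 89 and 14 counts against 6 in resting wt. In resting 3′RR-deficient B-cells it could therefore hardly come out otherwise than higher than in wt. The 95% interval of its log2 ratio there, -0.43 to 2.71, does not exclude equal levels, and no support is drawn from Klf1 in that count.

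Compared per length, the globin genes stood far above the other members in each resting library. In the wt library Hba-a1 had 1799 CPM per kb of exon, Alas2 28.3, Slc4a1 4.49, Klf1 0.216, Epb42 0.183 and Gata1 0.158. In the Eμ-deficient library Hbb-bs had 9422 CPM per kb, Hba-a1 8575, Alas2 112, Slc4a1 49.7, Epb42 5.07, Klf1 4.40 and Gata1 1.55. All of these genes were thus higher per length in the Eμ-deficient than in the wt library.

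To set erythroblast against red cell RNA, the counts were expressed per 1000 globin counts of the same library, a ratio that does not depend on the scaling between libraries. Its denominator is the count by which the members were chosen, in the wt and Eμ-deficient libraries. The comparisons of the Eμ-deficient and of the 3′RR-deficient library with wt are therefore descriptions, and no support is drawn from them. Slc4a1 gave 6.69 counts per 1000 globin counts (95% interval 6.04 to 7.38) in the resting wt library, 12.3 (11.8 to 12.7) in the Eμ-deficient library and 11.3 (10.5 to 12.1) in the 3′RR-deficient library. Epb42 gave 0.302 (0.179 to 0.477), 1.39 (1.25 to 1.54) and 1.06 (0.846 to 1.32). In both enhancer-deficient libraries these intervals lay above those of wt. Of the 14596 genes tested outside the globins, the interval lay above that of wt in 0.473% and below in 91.2% for the resting Eμ-deficient library, and in 6.76% and 29.4% for the resting 3′RR-deficient library. Klf1 gave 0.101 (0.0369 to 0.219) in the wt, 0.340 (0.273 to 0.418) in the Eμ-deficient and 0.179 (0.0980 to 0.301) in the 3′RR-deficient library. Gata1 gave 0.117 (0.0472 to 0.242), 0.191 (0.142 to 0.252) and 0.166 (0.0886 to 0.285). For Klf1 the Eμ-deficient interval lay above that of wt, whereas the intervals of Gata1 overlapped in all 3 libraries. Alas2 went the other way, with 20.7 (19.6 to 21.9) in the wt, 13.6 (13.2 to 14.1) in the Eμ-deficient and 15.4 (14.6 to 16.3) in the 3′RR-deficient library.

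Of the 13 other named erythroid genes, 5 had an interval above that of wt in the resting Eμ-deficient library, namely Cldn13, Sptb, Rhag, Ermap and Car2. Another 4 had one below (Tfrc, Kit, Bpgm and Bnip3l), and those of Epor, Tal1, Nfe2 and Ank1 overlapped, beside 0.473% of all genes above and 91.2% below. In the resting 3′RR-deficient library 4 lay above (Tfrc, Sptb, Ermap and Car2), Bpgm lay below and 8 overlapped, beside 6.76% of all genes above and 29.4% below. Ermap, as an example, gave 0.486 (0.325 to 0.698), 1.28 (1.15 to 1.43) and 1.05 (0.835 to 1.30) counts per 1000 globin counts in the wt, Eμ-deficient and 3′RR-deficient libraries. For genes that B-cells also use, such as Tfrc and Bnip3l, erythroid RNA and that of B-cells cannot be told apart in this ratio. After LPS stimulation the globin totals of 1097, 7065 and 1173 counts left little to compare. Slc4a1 then gave 3.11 (1.95 to 4.72) in the Eμ-deficient and 5.97 (2.39 to 12.3) in the 3′RR-deficient library, and 0 counts in the wt library allow up to 2.73.

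**Figure D3:**
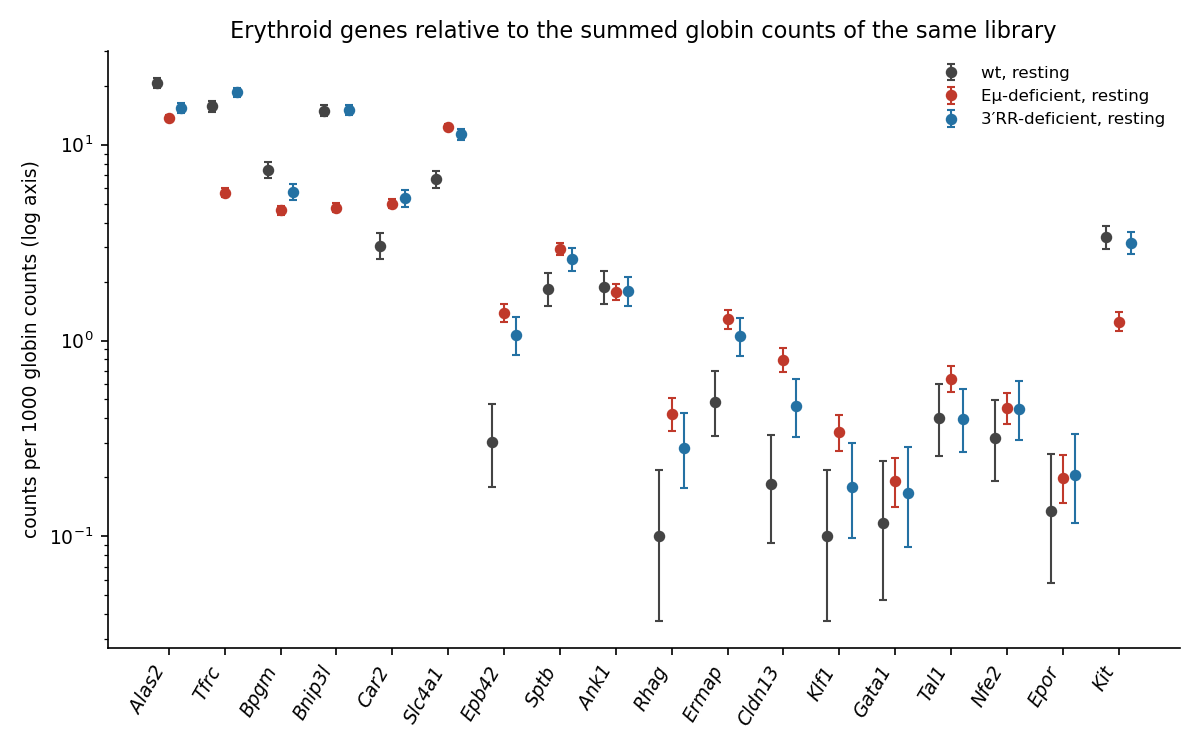
Counts per 1000 counts of the summed globin genes of the same library (log axis), with exact 95% intervals, in the resting wt, Eμ-deficient and 3′RR-deficient libraries. The membrane genes Epb42 (0.302, 1.39 and 1.06) and Ermap (0.486, 1.28 and 1.05) are lowest in the wt library, whereas Alas2 (20.7, 13.6 and 15.4) is highest there. The membrane gene Ank1 (1.88, 1.77 and 1.78) is also highest there, with overlapping intervals.

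Whether the erythroid genes differed between culture states was tested with edgeR's quasi-likelihood model over all 6 libraries, with genotype as a block, since culture state was not used to choose them. The 4 globin genes fell with LPS stimulation, each in 3 of 3 genotypes. The fitted log2 differences were -6.46 ± 0.37 (SE, edgeR, adjusted p = 4.39e-05) for Hbb-bt, -5.18 ± 0.32 (adjusted p = 5.8e-05) for Hba-a2, -5.16 ± 0.45 (adjusted p = 9.9e-05) for Hba-a1 and -5.11 ± 0.36 (adjusted p = 6.7e-05) for Hbb-bs. The summed globin count was 62.6-fold lower in wt, 29.9-fold lower in Eμ-deficient and 28.8-fold lower in 3′RR-deficient B-cells after LPS stimulation. Whether this fall differed between genotypes was not tested. Alas2 and Slc4a1 fell as well, also in 3 of 3 genotypes, by fitted log2 differences of -5.76 ± 0.42 and -6.88 ± 0.50 (adjusted p = 6.7e-05 for each). Slc4a1 reached 10 counts in each resting library but in only 1 LPS-stimulated library, so that it too entered the test through the resting state. It was at least 133-fold lower in wt B-cells, where it had 0 counts after LPS stimulation.

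The 3 low members passed the filter of at least 10 counts in at least 2 libraries only through resting libraries, so that they could hardly be called otherwise than lower. Epb42 had a fitted difference of -6.47 ± 0.71 (adjusted p = 0.000251), Gata1 of -4.41 ± 0.86 (adjusted p = 0.00392) and Klf1 of -3.58 ± 1.17 (adjusted p = 0.0363). Klf1 was at least 24.0-fold lower in Eμ-deficient and at least 2.02-fold lower in 3′RR-deficient B-cells, whereas in wt B-cells 6 and 5 counts gave a log2 ratio of -0.47 (95% interval -2.52 to 1.51). With the DESeq2 Wald test Klf1 had a log2 difference of -4.79 and an adjusted p of 0.0927, over alternatives whose adjusted p ranged from 1.01e-05 to 0.0927. Klf1 and Gata1 were under the filter when the Eμ-deficient or the 3′RR-deficient libraries were left out, and the other 7 members were called lower in each case. Without the LPS-stimulated 3′RR-deficient or without the LPS-stimulated wt library, alternatives chosen after seeing the data, 9 members were called lower. No support is drawn from that count, since only 5 members passed the filter in the LPS-stimulated libraries too. Of all 14600 genes tested, 21.1% were called lower and 19.7% higher. Of the 12789 genes that had not passed the filter through resting libraries, 16.7% were called lower.

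The residual of this model is the departure from additivity of genotype and state, with 1 library for each combination, and the resting and LPS-stimulated cells of each genotype could derive from shared mice. If the resting cells were taken before culture, LPS and time in culture cannot be told apart.

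**Figure D4:**
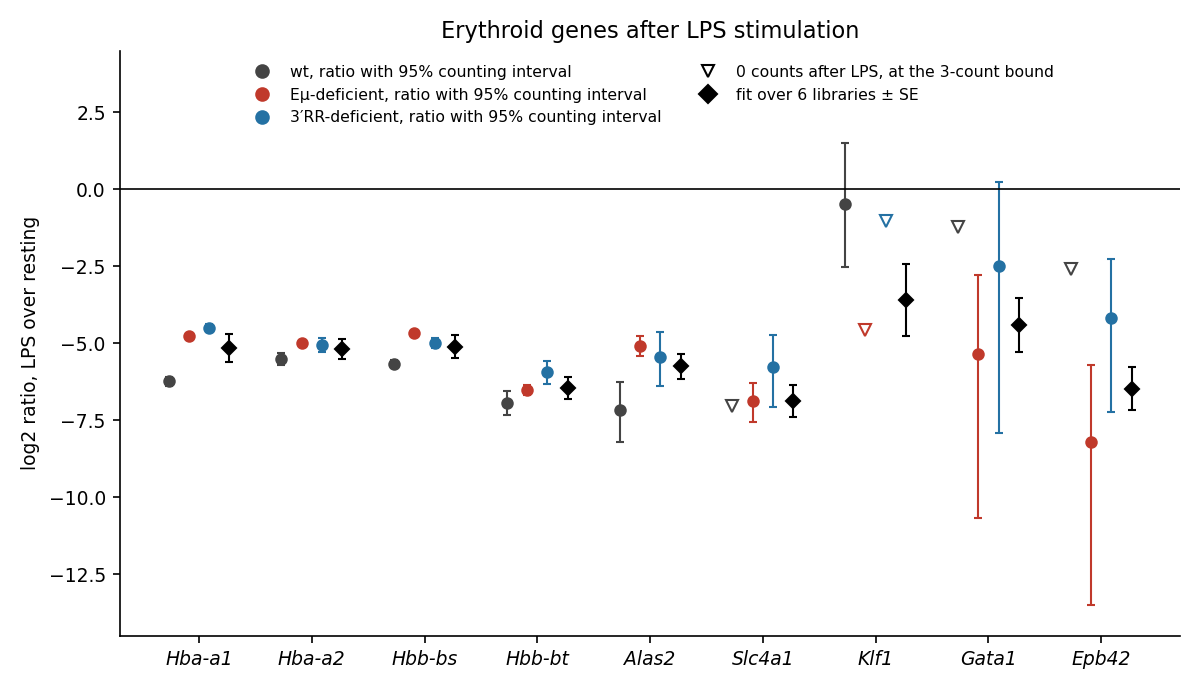
Log2 ratio of LPS-stimulated to resting B-cells for the 9 members in each genotype, with 95% counting intervals, open triangles at the bound set by 3 counts where the LPS-stimulated library had 0 counts, and the fitted difference over 6 libraries with its SE (diamonds). The fitted differences run from -3.58 for Klf1 to -6.88 for Slc4a1, and the wt ratio of Klf1 is near 0.

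Other erythroid genes were described in the same model. Of 15 membrane and skeleton genes tested other than the members, 10 passed the count filter through resting libraries, with at most 1 LPS-stimulated library at 10 counts, and entered the test through the state where they were high. They were Sptb, Rhag, Rhd, Kel, Aqp1, Ermap, Add2, Dmtn, Tmod1 and Cldn13, and such genes made up 12.4% of all genes tested. No support is drawn from their calls. Of the other 5 membrane genes, 3 fell (Ank1, Epb41 and Tspan33), 1 rose (Gypc, used by many blood cells) and 1 (Xk) was not called, while of the other 12789 genes tested 16.7% were called lower. Since Rhag had 0 counts in every LPS-stimulated library, it was at least 2.00-fold lower in wt, 29.6-fold lower in Eμ-deficient and 3.17-fold lower in 3′RR-deficient B-cells.

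Of 9 factor genes other than the members, 3 passed the filter through resting libraries in this way (Tal1, Nfe2 and Sox6). Of the other 6, 1 fell (Cbfa2t3), beside 16.7% of the 12789 genes tested that had not, 1 rose (Gfi1b) and 4 were not called. Gfi1b had 0, 18 and 5 counts in resting and 66, 23 and 25 counts in LPS-stimulated wt, Eμ-deficient and 3′RR-deficient B-cells. It thus entered the test through the LPS state, and no support is drawn from its rise. Genes that passed the filter in that way are still among the 12789. Nfe2 had 0 counts in each LPS-stimulated library, at least 6.33-fold lower in wt, 31.8-fold lower in Eμ-deficient and 5.05-fold lower in 3′RR-deficient B-cells than in the resting state. Of 9 receptor and early genes 4 passed through resting libraries (Epor, Hemgn, Car1 and Trim10). Of the other 5, 3 fell (Kit, Trib2 and Mfsd2b), beside the same 16.7%, E2f2, a cell cycle factor gene, rose and Csf2rb was not called.

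Haem and late genes were taken next. Of 15 haem and iron genes other than Alas2, Hebp1 passed the filter through resting libraries, with 103, 395 and 152 resting counts and 12, 6 and 4 counts after LPS stimulation. Of the other 14, 5 fell, beside 16.7% of the 12789 genes tested without those that passed in this way, 2 rose and 7 were not called. Fech, of the last step of haem synthesis, had a fitted difference of -1.84 ± 0.36 (adjusted p = 0.00385). Cpox, a haem enzyme gene used by all cells, rose by 2.14 ± 0.31 (adjusted p = 0.000944) and Tfrc by 1.46 ± 0.36 (adjusted p = 0.0111). Of 15 late genes 2 passed the filter through resting libraries (Alox15 and Trim58). Of the other 13, 6 fell (Car2, Bpgm, Mkrn1, Blvrb, Cat and Bnip3l), beside the same 16.7%, and 7 were not called. With edgeR Bpgm (-1.60 ± 0.38, adjusted p = 0.00927) and Bnip3l (-1.03 ± 0.23, adjusted p = 0.00704) lost their calls without the Eμ-deficient libraries. Over alternatives their adjusted p ranged from 5.68e-07 to 0.0834 and from 6.31e-05 to 0.128. The log2 differences of these alternatives ranged from -2.14 to -0.968 for Bpgm and from -1.24 to -0.852 for Bnip3l. Of the other globin genes only Hbq1b reached the filter, with 12, 40 and 9 counts in resting and 0, 2 and 0 counts in LPS-stimulated wt, Eμ-deficient and 3′RR-deficient B-cells.

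Whether the members differed between 3′RR-deficient and wt B-cells over both states was tested in the same model. The choice of members did not use the 3′RR-deficient libraries but did use the wt libraries, so this test is not independent of the choice and no support is drawn from it. With edgeR 0 of the 9 members had an adjusted p under 0.05, beside 0.678% of all genes tested. The largest differences were those of Epb42, 2.26 ± 0.73 (SE, unadjusted p = 0.0133, adjusted p = 0.522), and Slc4a1, 1.39 ± 0.55 (unadjusted p = 0.0323, adjusted p = 0.758), both higher in 3′RR-deficient B-cells. These 2 members had an unadjusted p under 0.05, as did 5.69% of all genes. With DESeq2 0 members were called after adjustment, and 3 had an unadjusted p under 0.05, beside 5% of all genes. Without the filter on low counts the adjusted p of Epb42 was 0.0391, and over its alternatives it ranged from 0.0391 to 0.675. For the globin genes the fitted differences lay between 0.54 ± 0.38 (Hbb-bs) and 0.88 ± 0.47 (Hba-a1), each with an adjusted p of 0.915. Without the LPS-stimulated wt library they lay between 0.14 (Hba-a1) and 0.45 (Hbb-bt), the difference changed sign for Alas2 (0.22 to -0.27) and Klf1 (-0.40 to 1.03), and 0 members were called. A p that misses the threshold does not show that the genotypes have the same level.

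Markers of other cell types moved in the same libraries. The list of 14 genes of red pulp and other macrophages, the cells that take up old red cells and support erythroblasts, summed to 192, 735 and 297 CPM in resting wt, Eμ-deficient and 3′RR-deficient B-cells and to 18.8, 38.7 and 30.1 CPM after LPS stimulation. In resting B-cells 13 of the 14 were at least 2-fold higher in the Eμ-deficient than in the wt library, beside 12.5% of all genes. With LPS stimulation 8 of the 14 (Spic, Vcam1, Slc40a1, Cd163, C1qa, C1qb, C1qc and Siglec1) had passed the filter through resting libraries, and of the other 6, 5 fell, beside 16.7% of such genes. The most abundant of them over the 6 libraries, Vcam1, had 20.9, 134.9 and 48.9 CPM in resting B-cells, but in the resting wt library it was Csf1r, with 36.0, 103 and 46.8 CPM in the resting libraries. After LPS stimulation Slc40a1, Cd163, C1qa, C1qb, C1qc and Siglec1 had 0 counts in wt B-cells and C1qb in 3′RR-deficient B-cells. Their part in the erythroid values was not tested.

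The 12 megakaryocyte and platelet genes went another way in resting B-cells, with 71.3, 43.4 and 66.3 CPM in the wt, Eμ-deficient and 3′RR-deficient libraries. Their sums were 9.37, 9.84 and 19.0 CPM after LPS stimulation, below the resting sum of each genotype. Over the 6 libraries their most abundant gene was Itgb3, which is also used outside platelets. Gp1ba had 0 counts in the resting Eμ-deficient and 3′RR-deficient libraries. After LPS stimulation 0 counts were found for Gp9 and Treml1 in each library, for Gp1bb, Gp6, Vwf and Tubb1 in wt, for Gp1ba, Gp1bb and Gp5 in Eμ-deficient and for Gp1ba in 3′RR-deficient B-cells.

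Genes of mast cells, basophils and eosinophils summed to 18.8, 69.2 and 26.2 CPM in resting wt, Eμ-deficient and 3′RR-deficient B-cells and to 17.0, 19.0 and 18.1 CPM after LPS stimulation. Over the 6 libraries their most abundant gene was Il5ra, but in the resting Eμ-deficient library it was Prg2. Prg2 had 2.53, 42.0 and 1.94 CPM in the resting libraries, and Ccr3 had 1.65, 15.1 and 4.71 CPM. With a floor of 3 counts, 4 of the 11 genes were higher in the resting Eμ-deficient than in the wt library, while Il5ra and Hdc were lower there. Resting libraries had 0 counts of Mcpt8, Prss34, Epx and Siglecf (wt), Prss34 and Epx (Eμ-deficient) and Mcpt8 (3′RR-deficient). LPS libraries had 0 counts of Fcer1a, Prss34 and Epx, and in wt and 3′RR-deficient B-cells also of Cpa3 and Mcpt8. Stem and progenitor genes summed to 14.6, 30.6 and 15.4 CPM in resting B-cells, most of it Kit, and to 1.67, 5.81 and 4.04 CPM after LPS stimulation. Mecom had 0 counts in each resting library and Hlf in the Eμ-deficient one. After LPS stimulation Gata2, Ctsg, Elane and Prtn3 had 0 counts in each library, Mecom in wt and Eμ-deficient B-cells, and Cd34, Mpo and Hlf in wt B-cells.

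Neutrophil genes summed to 7.81, 15.7 and 21.0 CPM in resting wt, Eμ-deficient and 3′RR-deficient B-cells and to 0.909, 3.65 and 1.46 CPM after LPS stimulation, with Csf3r the most abundant over the 6 libraries, but in the resting 3′RR-deficient library it was S100a8, with 0.605, 2.42 and 7.53 CPM in the resting libraries. Camp and Retnlg had 0 counts in each LPS library, S100a9 in wt, Ngp in Eμ-deficient and 3′RR-deficient, Cxcr2 in Eμ-deficient and Mmp9 in 3′RR-deficient B-cells. T-cell and NK cell genes summed to 30.8, 48.8 and 34.4 CPM in resting B-cells and to 5.12, 17.4 and 13.5 CPM after LPS stimulation. Lck was the most abundant over the 6 libraries, but in the resting Eμ-deficient library it was Cd4, with 9.08, 24.2 and 9.19 CPM in the resting libraries. Of the 9 T-cell and NK cell genes tested 2 were at least 2-fold higher in the resting Eμ-deficient than in the wt library, beside 12.5% of all genes, with a median log2 ratio of 0.10. Klrb1c had 0 counts in each LPS library, Cd8a, Ncr1 and Nkg7 in wt and 3′RR-deficient B-cells, and Cd3e in wt B-cells. Cell cycle genes, which mark dividing cells of any type, summed to 114, 273 and 198 CPM in resting B-cells and to 1689.8, 1587 and 1587 CPM after LPS stimulation, with Mki67 the most abundant over the 6 libraries and Top2a in LPS-stimulated wt B-cells. The macrophage, mast cell and eosinophil, progenitor, T-cell and cell cycle lists had their highest resting sums in the Eμ-deficient library, as the erythroid genes did. For the T-cell sum this was mostly through Cd4, and for the mast cell and eosinophil sum mostly through Prg2 and Ccr3. The part of these lists was not tested.

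**Figure D5:**
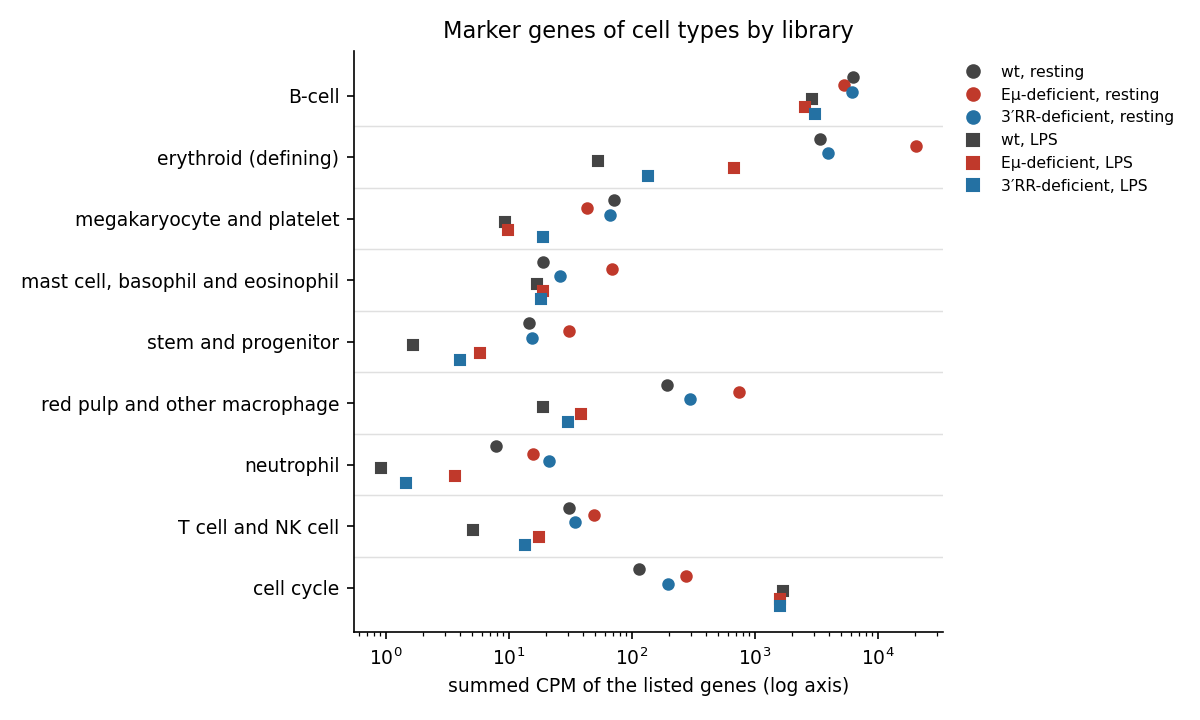
Summed CPM of marker genes of 9 cell types or states (log axis) in the resting (circles) and LPS-stimulated (squares) libraries of each genotype, 1 point for each library. Erythroid sums run from 53.2 to 20353 CPM and macrophage sums from 18.8 to 735 CPM, both highest in the resting Eμ-deficient library, while B-cell sums lie between 2568 and 6244 CPM.

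The genes whose profile over the 6 libraries was most like that of the summed globins were ranked by the root mean square difference of centred log2 CPM among 14596 genes. Alas2 ranked 1, at 0.31, whereas Slc4a1 ranked 35, Epb42 125, Gata1 374 and Klf1 785. Among the 10 nearest genes outside the members were Ccr2 at 0.38, C1qa, Frmd4b, Asb2, Tmcc2, Apol11b, Gda, Cd4 and F13a1 at 0.67. Of these, C1qa was in the macrophage list and Cd4 in the T-cell list. Ccr2, a chemokine receptor gene of monocytes, had 106, 510 and 122 counts in resting wt, Eμ-deficient and 3′RR-deficient B-cells and 1, 18 and 1 counts after LPS stimulation.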

How the data were processed

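By the submitters' processing notes, paired reads of 150 nt from RNA depleted of ribosomal RNA were mapped to mm10 (STAR 2.4.0a). The authors deposited counts per gene name (featureCounts of Subread 1.4.6-p1, multi-mapping reads included). Tests and library sizes did not use the 92 spike-in RNAs, which took 4.75% to 7.1% of all counts. The genes received 9111974 to 21998587 counts per library. Ratios carry exact conditional binomial 95% intervals (scipy 1.17.1). For bounds, list medians and counts of 2-fold differences, levels under 3 counts of the shallower library were raised to that level. Exon lengths and GC content came from GENCODE M21.

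An additive model of genotype and state (edgeR 4.0.16, R 4.3.3, TMM) used the 14600 genes that reached 10 counts in 2 or more libraries, with p adjusted after Benjamini and Hochberg and called under 0.05, and was tested on simulated data. Alternatives were 4 other scalings, other filters, DESeq2 1.42.0, no genotype block, leaving out genotypes or (chosen after seeing the data) 1 LPS library, GC trend removal, a prior count of 2 and log2(CPM + 1). Named were the members, 13 further erythroid genes and up to 4 called genes per erythroid list with the largest differences. Also named were the most abundant gene of each marker list, markers at 0, and genes among the 10 nearest to the globin profile. Prg2, Ccr3, Cd79a, Cr2 and genes named to complete a count or for the count filter were chosen after their values were seen. The members and lists were chosen with earlier results of these data known. Of the listed genes, Ahsp, Rhex, Hbb-b1 and Hbb-b2 were not analysed here, and some others are not reported here.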

Additional observations from a re-analysis of the deposited data

Results flagged for a closer look

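Among the members and the 13 other named erythroid genes, the ratio to wt of 3 genes went one way in resting and the other way in LPS-stimulated B-cells, with counting intervals that did not include 0. Genes of the lists outside this set also did so, among them Xpo7, Prdx2 and E2f2 in the Eμ-deficient library, with 1.27 and -0.25, 1.85 and -0.54, and 0.78 and -0.41. These differences between states were not tested. Tfrc had a log2 ratio of the Eμ-deficient to the wt library of 1.13 without and -0.73 with LPS. For the 3′RR-deficient library it was 0.45 and -0.71 for Tfrc, 0.22 and -0.26 for Bnip3l, and -0.22 and 1.49 for Alas2, whose LPS value rests on 12 and 10 counts.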

How the results depend on the processing

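For the 5 members that reached 10 counts in every library, 65 of 65 alternative fits for LPS stimulation gave a lower level and were called. Fits of the 4 others, which passed the filter through resting libraries, are not counted, and among them Klf1 lost its call with the DESeq2 Wald test. Its log2 difference there was -4.79, against -3.58 with edgeR. The number of members called lower was 5 with at least 10 counts in every library, where fewer members were tested, and between 7 and 9 when a genotype was left out. Without each genotype in turn the model called between 3960 and 6662 genes for LPS, against 5959. For 3′RR-deficient over wt, 99 genes were called, but 170 with the spike-in total as library size, 339 without a filter on low counts, 31 with at least 10 counts in every library, 178 with DESeq2, 177 with wt and 3′RR-deficient libraries only and 233 without the LPS-stimulated wt library, an alternative chosen after seeing the data. The cause was not tested, other than the different number of genes or libraries. Members called there were 0, and 1 (Epb42) without the filter.

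The log2 ratio of summed globins between Eμ-deficient and wt libraries, 2.59 in resting B-cells, was 2.396 by total count, 2.61 by DESeq2 size factors, 1.78 by spike-in total and 2.84 with the GC trend removed. After LPS stimulation, 3.66 became 3.81 by spike-in total and 3.55 with the GC trend removed. For resting 3′RR-deficient B-cells, 0.21 became 0.0191 by total count and 0.26 with the GC trend removed, and it reversed to -0.0354 by spike-in total. There Hba-a1 reversed to -0.11 by total count and to -0.16 by spike-in total, and Hbb-bs to -0.00742 by spike-in total. After LPS stimulation, 1.33 became 1.88 by spike-in total and 0.90 with the GC trend removed. The cause was not tested. These scalings also moved the median of all genes, in resting Eμ-deficient B-cells by -0.18 by total count and -0.80 by spike-in total, and in resting 3′RR-deficient B-cells by -0.19 and -0.24. In LPS-stimulated B-cells the spike-in total moved it by 0.12 and 0.52.

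With 1 library per genotype and state, intervals cover counting error only, and amplified reads are not independent molecules. Depth limits Klf1, Gata1 and Epb42, which had at most 5 counts in any LPS-stimulated library. The resting and LPS-stimulated libraries were paired by genotype only, since the labels do not say which mice each pool holds. Globin copies share reads, and differences in cell makeup between pools of mice cannot be told apart from differences between genotypes.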

Other observations

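The embryonic globin gene Hbb-bh1 did not share the order of the adult genes. It had 1, 0 and 4 counts in resting wt, Eμ-deficient and 3′RR-deficient B-cells and 20, 0 and 5 counts after LPS stimulation. The highest value thus lay in the LPS-stimulated wt library, where the adult globins were lowest. Hba-x had 2 counts, both from 3′RR-deficient B-cells with LPS, Hbb-y had 1 and 2 counts in resting Eμ-deficient and 3′RR-deficient B-cells, and Hbb-bh0 and Hbb-bh2 had 0 counts throughout. Hbb-bh1 did not reach the count filter and was not tested.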
